A study of Mus musculus with 40 samples.

Results

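Genes for molecular chaperones and for protein folding in the endoplasmic reticulum (ER) were followed in mouse bone marrow after the cytotoxic drug cyclophosphamide. They were taken by name: the HSP70, HSP90 and small heat shock proteins, the J proteins (Dnaj), subunits 2 to 8 of the chaperonin TRiC and Tcp1, calreticulin, calnexin, the protein disulfide isomerases (Pdia, P4hb), the Bag1 to Bag6 family, St13, and the FK506-binding prolyl isomerases (Fkbp). The array annotation held 81 such genes. Of these, 26 had values in at least 3 mice of each of the 4 groups and were tested, among 5297 genes and unnamed probes tested in the whole series. Another 22 had values in too few mice, and 33 had no value in any mouse.

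Marrow RNA of 20 mice of the inbred strain DBA/2 was labelled with Cy5 and hybridised beside a Cy3-labelled common reference, 40 arrays in all with 2 per mouse. Control mice were untreated, and the other groups received 83 mg/kg cyclophosphamide into the peritoneum and gave their marrow 1, 2 or 5 days later, with 5 independently harvested mice in each group. The labels name no altered allele, age or sex, and describe whole marrow, so each value averages over all of its cell types. The reference is described as a pool of untreated marrow, while its treatment field records cyclophosphamide. It is common to all arrays and cancels in differences between groups. A value here is the authors' deposited log ratio of a mouse over that pool, taken as log2 and averaged over the 2 arrays of a mouse. If the base were another one, folds would differ from those given.

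Chaperones bind unfolded proteins and help them reach or keep their shape. In the cytosol, J proteins hand clients to HSP70, HSP90 finishes many signalling proteins, and the ring-shaped TRiC folds actin and tubulin. In the ER, the lectins calreticulin and calnexin hold newly made glycoproteins while protein disulfide isomerases form and rearrange disulfide bonds. Unfolded proteins in the ER switch on the unfolded protein response, which raises many of these genes through the ER stress element in their promoters, and heat shock factors do the same for cytosolic chaperones. Secretory cells such as plasma cells, and granulocyte precursors that fill their granules, depend on this machinery.

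Between 4079 and 7977 of the 13443 probes carried a value on each array, and both arrays of a mouse correlated at 0.683 to 0.957 across probes. Control mouse 4 (mean correlation with its own group 0.284) and day 1 mouse 1 (0.372) were least like their groups. Day 2 mice 4 and 5 had 7923 and 7118 probes measured against 5043 to 6592 in the other 3 mice of that day. Their paired arrays correlated at 0.820 and 0.758, against 0.919 to 0.951 in the others. Day 5 mouse 5 had 7710 probes measured and a correlation of 0.683.

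On day 1, 2 of the 26 chaperone genes rose (Dnajc4 and Hspb2) and 1 fell (Dnajb1), by limma's moderated test with Benjamini-Hochberg adjustment over all features at an adjusted p under 0.05. Over all 5297 features, 19.1% passed that test, 10.7% as higher and 8.38% as lower. On day 2, 5 members rose (Fkbp1a, Calr, Dnaja2, Pdia3 and Dnajc4) and 2 fell (Dnajc14 and Dnajb1), where 19.2% of all features passed, 9.61% in each direction. On day 5, 0 members passed, with 4 at an unadjusted p under 0.05, and 2.62% of all features passed. The moderated F test among the 4 groups called 8 members (Calr, Fkbp1a, Dnajc4, P4hb, Dnaja2, Pdia3, Hspa9 and Hspb2), against 30.7% of all features. The members' share in the F test is close to its background. Their share called lies below the background on day 1, and their share rising lies above it on day 2. These counts are small, so the genes are described one by one and nothing is read from the number called.

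The middle of the group hardly moved. The median log2 difference over the 26 members was -0.06 on day 1, 0.11 on day 2 and 0.05 on day 5, and over all features it was -0.01, -0.02 and 0.01. Members above control numbered 11, 14 and 17 on the 3 days. The spread between mice of a group (pooled SD) ran from 0.10 in Dnajb1 to 0.34 in Dnajc7, with a median of 0.21, and the widest difference between group means ran from 0.11 in Fkbp9 to 0.80 in P4hb. Not overlapping the controls, with all values above, were Dnaja2, Dnajc4 and Hspb2 on day 1 (6.95% of all features), Calr, Dnajc4, Fkbp1a, Hspb2 and Pdia3 on day 2 (9.59%), and Calr, Hspb2 and P4hb on day 5 (3.13%). All values lay below the controls for Cct8 and Dnajb1 on day 1 (6.1% of all features), for Cct8 on day 2 (9.4%) and for 0 members on day 5 (3.21%). These shares cover tested features against control only. Separations between days, or of untested genes, have no such background here. In whole marrow, fewer cells of a type and less RNA per cell cannot be told apart.

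**Figure D1:**
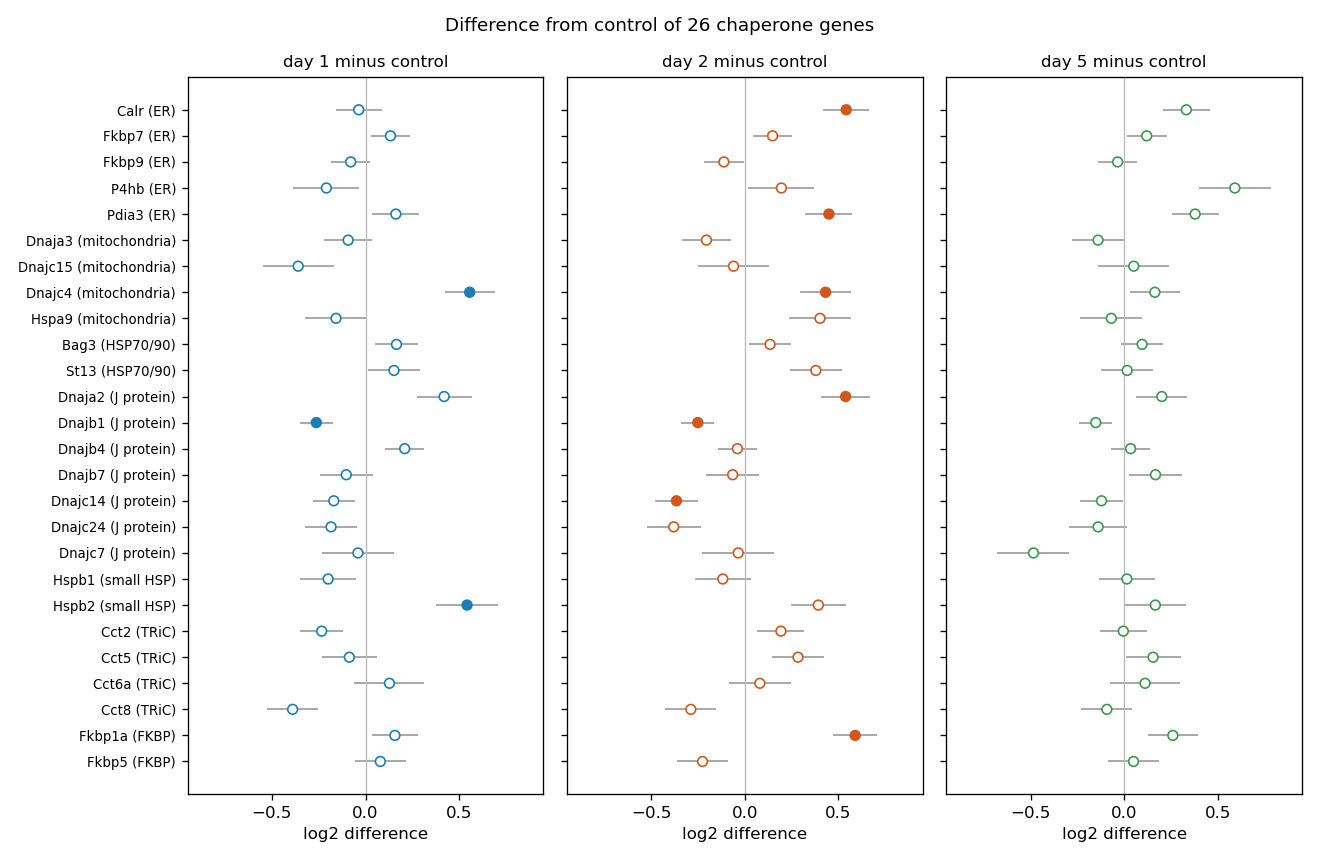
Difference from control (log2, limma estimate, bars 1 standard error) of the 26 tested chaperone genes on day 1, day 2 and day 5, grouped by role; filled points passed at an adjusted p under 0.05. Filled points number 3 on day 1, 7 on day 2 and 0 on day 5.

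Of the ER folding genes, 5 of 17 were tested. Calr and Pdia3 rose on day 2, and P4hb had its highest level on day 5. The F test called these 3, and Fkbp7 and Fkbp9 passed in no comparison. Dnajc14, a J protein of the ER membrane that the role lists hold among the other J proteins, fell on day 2 and is described there.

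Calr encodes calreticulin, the soluble calcium-binding lectin chaperone of the ER. Its promoter is shown because, of the 23 tested members with a promoter in the RefSeq table, it alone holds the ER stress element. The element was read as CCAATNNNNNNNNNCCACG on either strand of the 250 bases before the gene start. Hspa9, Hspb2 and St13 are not in that table and were not searched. That motif occurs in 35 of 27025 promoters of this length in the RefSeq table (0.13% of genes, build GRCm38.p6), and in 5 of the 68 annotated chaperone genes found there. The outer parts of the element, CCAAT and CCACG, are in capitals on either strand. The sequence is chr8:84846932-84847181, minus strand, read 5′ to 3′ toward the gene.
Calr: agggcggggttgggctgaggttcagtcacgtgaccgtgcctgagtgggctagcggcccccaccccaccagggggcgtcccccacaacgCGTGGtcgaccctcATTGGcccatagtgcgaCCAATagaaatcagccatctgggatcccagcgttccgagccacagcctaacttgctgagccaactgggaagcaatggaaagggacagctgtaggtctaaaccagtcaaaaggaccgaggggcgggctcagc

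The element of Calr lies 162 to 144 bases before the gene start, on the strand opposite to the gene. It is set below beside those of the other annotated chaperone genes that hold one, read in the direction that starts with CCAAT, with the fixed letters in capitals. Hspa5 is BiP, the main HSP70 of the ER, Hsp90b1 is its HSP90, Canx is calnexin, and Dnajc3 is an ER-lumenal J protein. Hspa5, Canx and Dnajc3 had no value in any mouse, and Hsp90b1 had one in 2 mice, so Calr is the only one of these genes that the tests reach.
Calr: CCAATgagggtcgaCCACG
Hspa5: CCAATcggaggcctCCACG
Canx: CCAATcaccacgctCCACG
Dnajc3: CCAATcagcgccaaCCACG
Hsp90b1, farther from the start: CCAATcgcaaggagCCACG
Hsp90b1, nearer to the start: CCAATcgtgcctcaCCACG

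Calr had 2 probes that did not behave alike. Probe 019A10 had values in all 20 mice. It read -0.35, -0.45, -0.18, -0.32 and -0.36 in control mice 1 to 5, and -0.30, -0.69, -0.25, -0.52 and -0.24 on day 1. On day 2 it read 0.64, 0.44, 0.44, 0.33 and 0.14, and on day 5 -0.09, 0.05, 0.20, 0.18 and 0.29. By this probe every mouse of day 2 and day 5 lay above every mouse of control and day 1.

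Probe 002B11 had values in 11 mice only, with means of -0.22 ± 0.16 in control, -0.08 ± 0.14 on day 1 and -0.16 ± 0.26 on day 2 (SD, n = 3 each), and -0.15 on day 5 (2 mice). Its groups overlap. Day 2 values exist for mice 2, 4 and 5, at 0.14, -0.29 and -0.33. Averaging the probes therefore lowered Calr in those mice.

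With both probes averaged, Calr rose by 0.54 ± 0.12 on the log2 scale on day 2 (a 1.46-fold rise, adjusted p = 0.0041), and the rise kept its call under all 33 alternatives. It differed by -0.04 ± 0.12 on day 1 (adjusted p = 0.867). Day 2 exceeded day 1 by 0.58 ± 0.12 (adjusted p = 0.0104), the only member called higher in that comparison, where 1.36% of all features were. That call was lost in a fit of those groups alone (adjusted p = 0.0881). On day 5 Calr was 0.33 ± 0.12 above control and did not pass (adjusted p = 0.221). With 1 probe per gene, that measured in more mice, the differences were 0.73 on day 2 (adjusted p = 1.1e-04) and 0.46 on day 5 (adjusted p = 0.0195), and with both probes and array quality weights the day 5 difference of 0.34 passed as well (adjusted p = 0.0358).

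Pdia3 (also ERp57) and P4hb (also PDI) are disulfide isomerases of the ER lumen, and Pdia3 works on the glycoproteins that calreticulin and calnexin hold. Their promoters are shown with the same letters in capitals, since both genes were called among the 4 groups as Calr was. Neither window holds the full element. Pdia3 has 2 copies of CCAAT and 0 of CCACG, and P4hb has 1 of each, where 37.5% of all promoters hold CCAAT and 31% hold CCACG on either strand. The windows are chr2:121413652-121413901 on the plus strand for Pdia3 and chr11:120573254-120573503 on the minus strand for P4hb (RefSeq, GRCm38.p6).
Pdia3: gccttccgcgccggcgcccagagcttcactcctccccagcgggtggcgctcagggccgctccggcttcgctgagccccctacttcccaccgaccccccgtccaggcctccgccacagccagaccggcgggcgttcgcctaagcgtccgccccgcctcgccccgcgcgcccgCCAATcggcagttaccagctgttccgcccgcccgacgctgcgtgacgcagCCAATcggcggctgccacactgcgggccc
P4hb: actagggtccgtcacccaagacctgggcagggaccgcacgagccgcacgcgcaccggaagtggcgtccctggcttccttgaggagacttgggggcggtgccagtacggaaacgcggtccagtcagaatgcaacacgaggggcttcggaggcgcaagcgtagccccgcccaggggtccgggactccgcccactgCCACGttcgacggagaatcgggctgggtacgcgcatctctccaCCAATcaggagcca

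Pdia3 was measured in all 20 mice. It read 0.23, 0.10, 0.31, -0.02 and -0.12 in control mice, and 0.55, -0.07, -0.07, 0.46 and 0.44 on day 1. Day 2 mice read 0.32, 0.58, 0.60, 0.70 and 0.55, and day 5 mice 0.30, 0.59, 0.56, 0.54 and 0.40. All day 2 mice were above the highest control, day 1 mice were split, and 4 of the 5 day 5 mice were above the highest control.

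The day 2 rise of Pdia3 was 0.45 ± 0.13 (1.37-fold, adjusted p = 0.015). It was 0.16 ± 0.13 on day 1 (adjusted p = 0.389) and 0.38 ± 0.13 on day 5 (adjusted p = 0.135), neither of which passed, though that of day 5 did with array quality weights (adjusted p = 0.0254). Without day 2 mice 4 and 5 the day 2 adjusted p was 0.0576. Without control mouse 4 or control mouse 5 the F test of Pdia3 went from 0.0242 to 0.0519 and 0.0643. Its F call was also lost under quantile normalization (0.0504) and without day 2 mice 4 and 5 (0.0635).

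P4hb had values in 4 control, 4 day 1, 4 day 2 and 3 day 5 mice. It read 0.33, 0.09, 0.08 and 0.17 in controls, 0.41, -0.46, -0.21 and 0.08 on day 1, -0.02, 0.57, 0.61 and 0.28 on day 2, and 0.83, 1.00 and 0.45 on day 5. The 3 day 5 values lie above every control, and the day 1 and day 2 values overlap the controls. The F test passed (adjusted p = 0.0147), a call lost with the replicate block (adjusted p = 0.0807). The difference on day 5, 0.59 ± 0.19 (1.51-fold), did not pass (adjusted p = 0.134), except with array quality weights (adjusted p = 0.0293).

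Pdia4 (also ERp72), a further ER disulfide isomerase, fell short of the filter because day 5 had only 2 mice with values. It read -0.09, -0.26 and 0.09 in controls, 1.06, 0.78 and 0.64 on day 1, 0.37, 1.10 and 0.99 on day 2, and 0.01 and 0.03 on day 5. The values of day 1 and day 2 lie above all 3 control values and both day 5 values. With the filter at 2 mice per group, Pdia4 rose by 0.91 ± 0.18 on day 1 (adjusted p = 0.00517) and by 0.90 ± 0.18 on day 2 (adjusted p = 0.00480), and fell by 0.80 ± 0.21 from day 2 to day 5 (adjusted p = 0.0142). Both rises are larger than any of a tested member and rest on 3 mice a group, and the fall rests on 3 day 2 and 2 day 5 mice.

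**Figure D2:**
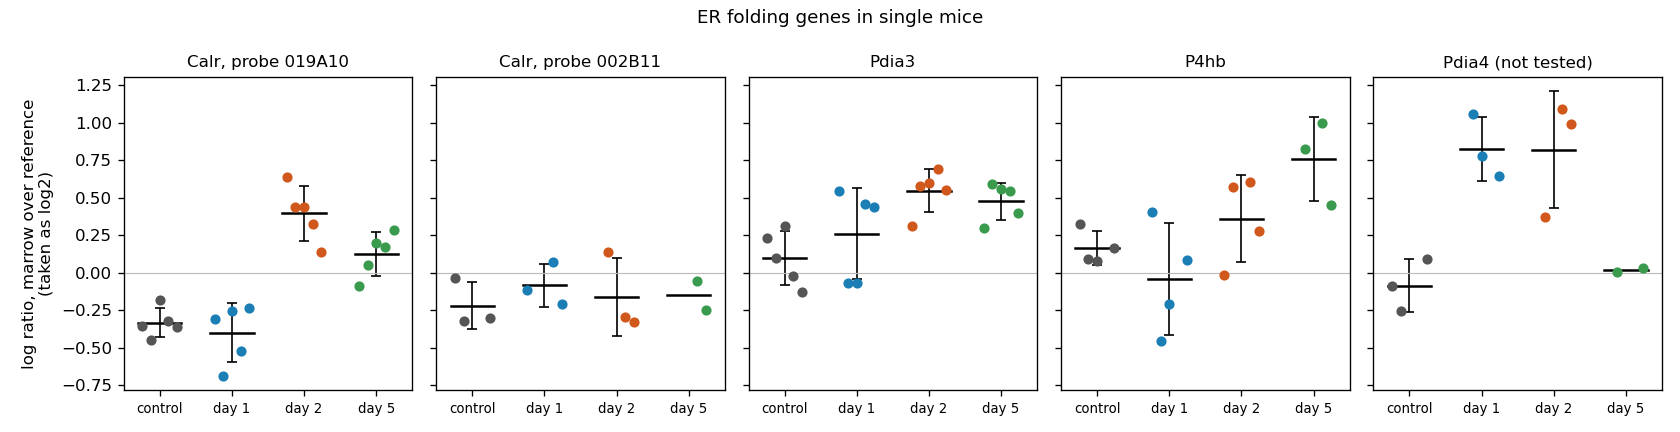
Log ratio of marrow over the reference pool (taken as log2) for ER folding genes, 1 point per mouse with group mean and, for 3 or more mice, SD. Calr is shown by probe: probe 019A10 is higher in all day 2 and day 5 mice than in all control and day 1 mice, probe 002B11 overlaps between groups, and Pdia4, not tested for want of day 5 values, is high on day 1 and day 2.

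Fkbp7 and Fkbp9, prolyl isomerases of the ER, stayed within 0.15 of control on each day (for example Fkbp7 0.15 ± 0.11 and Fkbp9 -0.11 ± 0.11 on day 2, adjusted p = 0.358 and 0.505). Fkbp11, an ER isomerase abundant in secretory cells, had values in 3 mice only, 0.25 and 1.22 in day 2 mice 1 and 3 and 2.11 in day 5 mouse 3. Hsp90b1 had 0.25 in control mouse 1 and 0.93 in day 5 mouse 5. Dnajb12 and Dnajc18, J proteins of the ER membrane, had values in 3 and 2 mice. Fkbp2, Dnajb11, Dnajc1 and Pdia5 had none.

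Among mitochondrial chaperones, 4 of 8 genes were tested. Dnajc4 rose on day 1 and day 2, Hspa9 was lower on day 5 than on day 2, and Dnaja3 and Dnajc15 did not pass. Dnajc4 encodes a membrane J protein that was listed with the mitochondria here. It read -0.00078, -0.04, -0.09, -0.67 and -0.08 in control mice, 0.21, 0.59, 0.53, 0.02 and 0.55 on day 1, 0.54, 0.17, 0.18, 0.36 and 0.03 on day 2, and -0.17, 0.02, 0.06, 0.10 and -0.08 on day 5. Every day 1 and day 2 mouse lay above every control, and control mouse 4 lay far below the others.

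The rise of Dnajc4 was 0.56 ± 0.13 on day 1 (1.47-fold, adjusted p = 0.0068) and 0.43 ± 0.13 on day 2 (1.35-fold, adjusted p = 0.0274). On day 5 the difference was 0.16 ± 0.13 (adjusted p = 0.806). Without control mouse 4 the day 1 rise was 0.43 and still passed (adjusted p = 0.0208), while that of day 2 was 0.31 and did not (adjusted p = 0.0884). The day 2 call was also lost without day 2 mouse 1 (adjusted p = 0.0931) or day 2 mouse 4 (adjusted p = 0.0532), and with technical replicate 2 only (adjusted p = 0.0630).

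Hspa9, also mortalin, is the mitochondrial HSP70 that pulls proteins through the import channel. It read 0.20, -0.02, -0.04, 0.06 and -0.03 in control mice and 0.07, -0.66, -0.09, 0.21 and -0.15 on day 1. Day 2 mice read 0.63, 0.83, 0.68, 0.14 and -0.10, and on day 5 0.0100, 0.00087, 0.30, -0.29 and -0.20. Day 2 mice 1 to 3 were the highest of all, and day 2 mice 4 and 5 lay within the range of the other groups.

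The fall of Hspa9 from day 2 to day 5 was 0.47 ± 0.16 on the log2 scale (adjusted p = 0.0442), in a comparison where 10.5% of all features were called lower. This call was lost in 9 of the 20 fits without 1 mouse, with adjusted p up to 0.119 (without day 2 mouse 3). Those 9 mice were control 2, day 1 mouse 5, day 2 mice 1 to 3, and day 5 mice 1, 2, 4 and 5. With array quality weights the fall was 0.31 and did not pass (adjusted p = 0.138), and without day 2 mice 4 and 5 it was 0.75 and did (adjusted p = 0.0018). The call was also lost under quantile normalization (adjusted p = 0.0709), the filter at 2 mice (0.0511), technical replicate 1 only (0.0685) and a fit of those groups alone (0.0689). Against control, Hspa9 was 0.40 ± 0.16 higher on day 2 and did not pass (adjusted p = 0.0916), but passed without day 2 mouse 5 (adjusted p = 0.0203) and, at 0.68, without day 2 mice 4 and 5 (adjusted p = 0.0057). Its F test (adjusted p = 0.0422) was lost in 12 fits without 1 mouse, with adjusted p up to 0.140. Those were control 2, 3 or 5, day 1 mouse 2, 3 or 5, day 2 mouse 1, 2 or 3, and day 5 mouse 2, 4 or 5. The F call was also lost under quantile normalization (0.0858) and with technical replicate 1 only (0.0639). The probe count and array correlation that set day 2 mice 4 and 5 apart move with the Hspa9 result, and their part in it was not tested.

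Dnajc15, a J protein of the mitochondrial inner membrane import motor, varied widely. Day 1 mouse 4 (-0.66) and day 5 mouse 5 (-0.30) lay far below the rest of their groups, at 0.09 to 0.37 and 0.37 to 0.79. Its day 1 difference of -0.36 ± 0.19 did not pass (adjusted p = 0.190). Dnaja3 (also Tid1), the J protein partner of Hspa9 in the matrix, was -0.21 ± 0.13 on day 2 (adjusted p = 0.286). Hspe1, the small chaperonin of the matrix, had values in 3 mice.

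Of the cytosolic HSP70 and HSP90 genes and their regulators, St13 and Bag3 were the 2 tested of 16. St13 encodes Hip, which steadies the ADP-bound state of HSP70. It read 0.24, 0.02, 0.03 and -0.18 in 4 control mice, 0.07, 0.36, -0.08, 0.36 and 0.19 on day 1, 0.18, 0.58, 0.20, 0.73 and 0.34 on day 2, and -0.10, 0.05, 0.36, -0.21 and 0.11 on day 5. The groups overlap, with day 2 highest. St13 fell by 0.36 ± 0.13 from day 2 to day 5 (adjusted p = 0.0489), a call lost in 10 of the 20 fits without 1 mouse, with adjusted p up to 0.132 (without day 2 mouse 4).

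Those 10 mice were control 2 and 3, day 1 mouse 5, day 2 mice 2, 4 and 5, and day 5 mice 1, 2, 4 and 5. Without day 2 mice 4 and 5 together, the fall of St13 was 0.28 and did not pass (adjusted p = 0.168). It was also not called under centring, quantile normalization, the filter at 2 mice, technical replicate 1 only or a fit of those groups alone, with adjusted p of 0.0507 to 0.218. The same held with the replicate block (0.0649). On day 2 St13 was 0.38 ± 0.14 above control and did not pass (adjusted p = 0.0554), but passed without control 1, day 1 mouse 3, or day 5 mouse 3 or 4 (adjusted p = 0.0447 to 0.0495). Bag3, a nucleotide exchange factor of HSP70 that links it to autophagy, did not pass on any day (0.17 ± 0.11 on day 1, adjusted p = 0.323). The stress-inducible Hspa1a, whose near-identical copy Hspa1b a probe may read as well, was measured in 4, 3, 2 and 2 mice, with values between -0.57 and 0.33 that overlap between groups. Hsp90aa1, the inducible HSP90, had 1 value, and Hspa8, the constitutive HSP70, had none.

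Bag1, which releases nucleotide from HSP70 and restrains cell death, was not tested because day 2 had 2 mice with values. It read 0.13, 0.01, 0.14 and 0.0013 in 4 controls, and -0.30, -0.03, -0.14, -0.37 and -0.30 on day 1. It read 0.08 and -0.20 in 2 day 2 mice and 0.37, 0.26 and 0.28 in 3 day 5 mice. All day 1 values lie below and all day 5 values above the controls. With the filter at 2 mice per group, the F test passed (adjusted p = 0.0091), while the day 1 difference of -0.30 ± 0.10 did not (adjusted p = 0.0594).

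Of the J proteins listed with neither the ER nor the mitochondria, 7 of 18 genes were tested. On day 2, 1 of them rose (Dnaja2) and 2 fell (Dnajb1 and Dnajc14). Dnaja2, the type I partner of constitutive HSP70, read -0.20, -0.35, -0.18 and 0.03 in 4 control mice and 0.37, 0.27 and 0.10 in 3 day 1 mice. It read 0.67, -0.04, 0.48, 0.36 and 0.35 on day 2, and 0.03, -0.10, 0.21 and -0.04 in 4 day 5 mice. Of the day 2 mice, 4 of 5 were above every control. The rise was 0.54 ± 0.13 on day 2 (1.45-fold, adjusted p = 0.0070), kept in all 29 alternatives that could be fitted, and 0.42 ± 0.15 on day 1 (adjusted p = 0.0516), which did not pass. That day 1 difference passed without control mouse 4 (adjusted p = 0.0385), day 1 mouse 1 (0.0392), day 2 mouse 1 (0.0390), day 2 mouse 2 (0.0279) or day 5 mouse 4 (0.0464). Dnaja2 had no value in day 1 mouse 1 or day 5 mouse 4. Of these fits, only that without control mouse 4 moved the difference itself, to 0.49. The day 1 difference also passed under centring (0.0485), quantile normalization (0.0365), array quality weights (0.0157) and the replicate block (0.0487). It passed as well without control mouse 4 and day 1 mouse 1 together (0.0267).

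Dnajb1, the main stress-inducible Hsp40, had the smallest spread within groups and was the only member called lower on both day 1 and day 2. It read -0.02, 0.14, -0.06, 0.20 and 0.12 in control mice and -0.10, -0.20, -0.16, -0.24 and -0.24 on day 1. The day 2 mice read -0.25, -0.19, -0.20, -0.19 and -0.06, and on day 5 -0.17, 0.10, -0.26, -0.0013 and -0.05. All day 1 mice lay below every control, and so did all day 2 mice but mouse 5, which lay just above the lowest control.

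The fall of Dnajb1 was 0.26 ± 0.09 on the log2 scale on day 1 (adjusted p = 0.0400) and 0.25 ± 0.09 on day 2 (adjusted p = 0.0486). Both calls are near the threshold, and without control mouse 4 and day 1 mouse 1 together neither passed (adjusted p = 0.0549 and 0.0886). The day 1 call was lost without control mouse 2, 4 or 5 or day 1 mouse 2, 3, 4 or 5, with adjusted p up to 0.0868. The day 2 call was lost in 12 of the 20 fits without 1 mouse: control 1, 2, 4 and 5, day 1 mice 3 and 5, day 2 mice 1 to 4, and day 5 mice 1 and 5 gave adjusted p up to 0.113. Its value on 1 array of day 1 mouse 3 sat at a number that many probes of that array shared, as at a scanner limit. With such values left out, the adjusted p was 0.0679 on day 1 and 0.0533 on day 2. Both calls were also lost with technical replicate 1 only (0.199 and 0.134), technical replicate 2 only (0.0515 and 0.107) and in fits of the compared groups alone (0.0884 and 0.0616). That of day 2 was lost under quantile normalization (0.0610), the filter at 2 mice (0.0515), the replicate block (0.0602) and without day 2 mice 4 and 5 (0.0541).

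Dnajc14, a J protein of the ER membrane known for binding the dopamine D1 receptor, fell by 0.37 ± 0.11 on day 2 (adjusted p = 0.0269). It read 0.13, 0.03, -0.02, 0.33 and 0.38 in control mice and -0.13, -0.12, -0.40, -0.37 and 0.03 on day 2, so that 4 of 5 day 2 mice lay below every control. On day 1 it read 0.13, 0.06, -0.28, 0.15 and -0.08, and on day 5 -0.12, 0.21, -0.07, 0.06 and 0.15. The call was lost without control mouse 4 (adjusted p = 0.0647), control mouse 5 (0.0753), day 2 mouse 3 (0.0814) or day 2 mouse 4 (0.0629), and with technical replicate 2 only (0.0948).

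Dnajc7, a co-chaperone that binds both HSP70 and HSP90, separated by mouse within groups. On day 5 it read -0.39, -1.01, -0.84 and -0.60 in mice 1 to 4 and 0.29 in mouse 5. On day 2 it read -0.27, -0.40 and -0.36 in mice 1 to 3 and 0.50 and 0.21 in mice 4 and 5. Controls lay between -0.18 and 0.14. The day 5 difference was -0.49 ± 0.19 and did not pass (adjusted p = 0.265), but passed at -0.69 without day 5 mouse 5 (adjusted p = 0.0165). On day 2 and day 5 the mice with the high Dnajc7 values are those with more probes measured and poorer agreement between arrays, whose part in it was not tested. On day 1, mouse 1 read 0.27 and the others -0.26 to -0.03. Its arrays correlated at 0.803 against 0.911 to 0.957 in the others, while its 6260 probes lay within their 5832 to 7163.

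Dnajc24, which takes part in diphthamide synthesis, was -0.38 ± 0.14 on day 2 (adjusted p = 0.0721). Its value in day 2 mouse 4 was 0.32, against -0.28, -0.38 and -0.25 in mice 1 to 3, and without that mouse the difference passed (adjusted p = 0.0088). Dnajb4, an HSP70 partner of muscle and other tissues, was 0.21 ± 0.10 on day 1 (adjusted p = 0.165). Its 2 probes disagreed in control mouse 4, at -0.46 on 028M13 and 0.33 on 032E01. On 032E01 alone, with values in all 20 mice, the means were 0.02 ± 0.17 in control and 0.16 ± 0.16 on day 1 (SD). Dnajb7, known from testis, was 0.17 ± 0.14 on day 5 (adjusted p = 0.819).

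Of the small heat shock proteins, 2 of 6 genes were tested. Hspb2, a muscle small heat shock protein, read 0.09, 0.21 and 0.07 in 3 control mice and 1.01, 0.39 and 0.60 in 3 day 1 mice. It read 0.49, 0.73, 0.76, 0.30 and 0.30 on day 2 and 0.30, 0.33 and 0.24 in 3 day 5 mice. Every treated mouse with a value lay above every control. The rise on day 1 was 0.54 ± 0.16 (1.46-fold, adjusted p = 0.0291), lost after quantile normalization (adjusted p = 0.102) and in a fit of those groups alone (adjusted p = 0.0605), and the day 2 difference of 0.39 ± 0.15 did not pass (adjusted p = 0.0702). That day 2 difference passed without day 2 mouse 4 (adjusted p = 0.0498) or mouse 5 (adjusted p = 0.0466). The F test (adjusted p = 0.0495) was lost without day 1 mouse 5, day 2 mouse 1, 2 or 3, or day 5 mouse 2 or 4, with adjusted p up to 0.0655. Hspb2 had no value in day 1 mouse 5 or day 5 mouse 2 or 4. Those fits changed only the moderation and the features adjusted. The F test was also lost under quantile normalization (0.231), the filter at 2 mice (0.0550) and the replicate block (0.0545). Hspb2 could be fitted in 20 alternatives. Leaving out any control, day 1 or day 5 mouse that had a value took it below the filter. Its day 1 call was thus never tried without 1 of those mice.

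Hspb1 (Hsp27), the widely expressed small heat shock protein, did not pass on any day (-0.20 ± 0.15 on day 1, adjusted p = 0.372). Its lowest value was -0.76 in day 1 mouse 2, and day 2 mouse 2 read -0.43, apart from the other 4 mice of its group at -0.06 to 0.04.

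The chaperonin TRiC is a double ring of different subunits that folds actin and tubulin. Of its 9 listed genes, 4 were tested, and 0 passed in any comparison. Cct2 came nearest in the F test (adjusted p = 0.0616, or 0.0408 without control mouse 4). It had no value in control mouse 4, so that fit changed only the moderation and the features adjusted. It read 0.39, 0.11, 0.26 and 0.04 in 4 control mice, 0.05, 0.05, -0.15 and -0.09 in 4 day 1 mice, 0.50, 0.44 and 0.23 in 3 day 2 mice, and 0.23, 0.30 and 0.05 in 3 day 5 mice. The 3 day 2 values lay above the 4 day 1 values, a separation for which no share over all features was computed. The difference between these days, 0.43 ± 0.13, did not pass (adjusted p = 0.0878).

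Cct8 was -0.39 ± 0.14 on day 1 (n = 3 in both groups, adjusted p = 0.0571 in limma), with all 3 values below the 3 controls. Cct5 was 0.28 ± 0.14 on day 2 (adjusted p = 0.160) and Cct6a 0.08 ± 0.16 (adjusted p = 0.791). Of the 4 differences, 1 was above 0 on day 1 (median -0.16) and 3 were on day 2 (median 0.14). Cct3 and Cct7 were measured in too few mice, and Tcp1 and Cct4 had no values.

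Fkbp1a (FKBP12), a cytosolic prolyl isomerase and the target of FK506 and rapamycin, had the largest rise among tested members on day 2. It read 0.22, 0.32, -0.01 and 0.25 in 4 control mice and 0.41, 0.30, 0.51 and 0.19 in 4 day 1 mice. On day 2 it read 0.86, 0.75, 0.67, 1.06 and 0.58, and in 3 day 5 mice 0.49, 0.59 and 0.28. The 5 day 2 values lie above all control and day 1 values, and only the lowest of them (0.58) lies below a day 5 value.

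The rise of Fkbp1a on day 2 was 0.59 ± 0.12 (1.5-fold, adjusted p = 0.0022), kept in all 29 alternatives that could be fitted, with values from 0.41 to 0.64. It was 0.16 ± 0.12 on day 1 (adjusted p = 0.404) and 0.26 ± 0.13 on day 5 (adjusted p = 0.510). Day 2 minus day 1 was 0.43 ± 0.12 and did not pass (adjusted p = 0.0631), though it did without day 1 mouse 1 (0.0496), day 2 mouse 5 (0.0461) or day 5 mouse 4 (0.0472). Fkbp1a had no value in day 1 mouse 1 or day 5 mouse 4. Without them its difference stayed at 0.43, and only the moderation and the features adjusted changed. Fkbp5 (FKBP51), the glucocorticoid receptor co-chaperone, did not pass on any day. It was -0.23 ± 0.14 on day 2 (adjusted p = 0.258), with mice between -0.65 and -0.21 that overlap controls at -0.41 to 0.23.

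**Figure D3:**
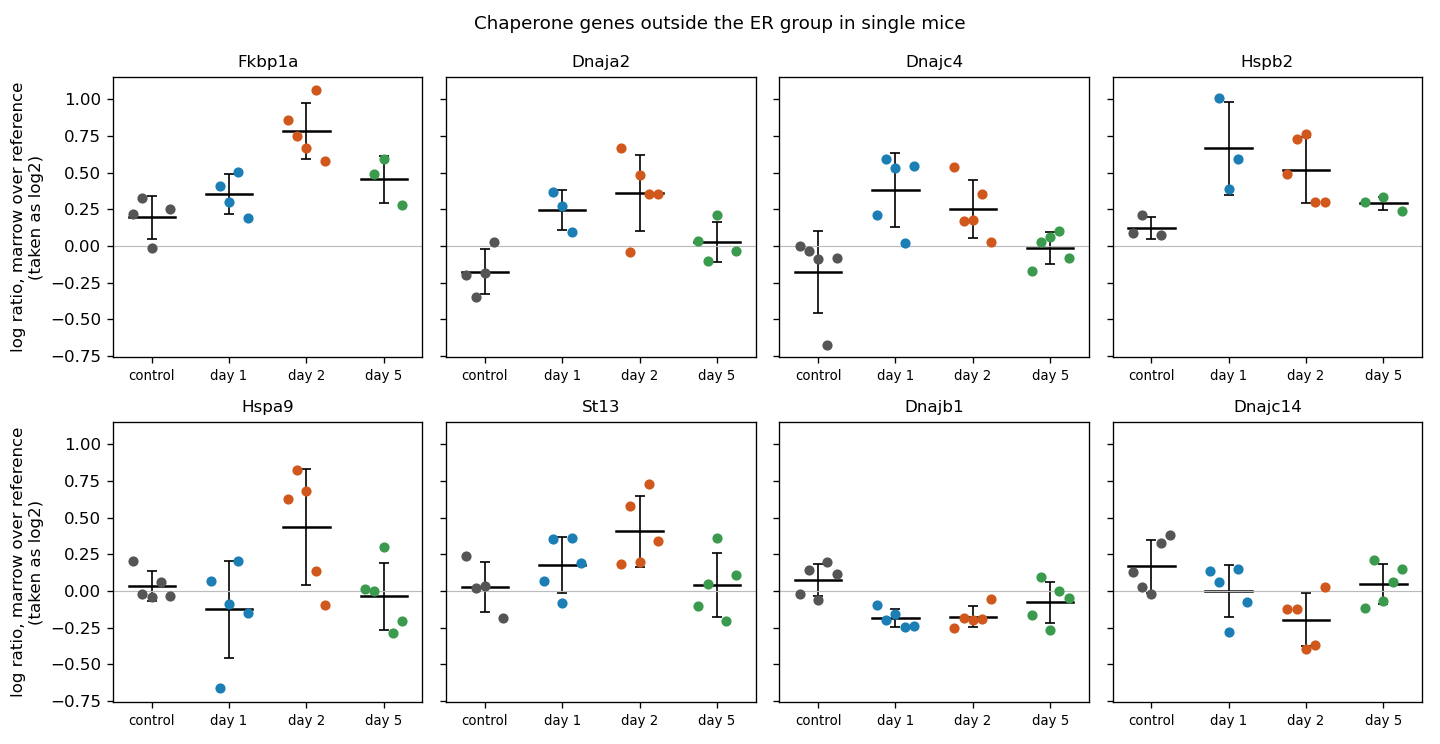
Log ratio of marrow over the reference pool (taken as log2) for 8 chaperone genes outside the ER group, 1 point per mouse with group mean and SD. Fkbp1a and Dnaja2 are highest on day 2, Dnajc4 and Hspb2 lie above all controls on day 1 and day 2, Hspa9 is high in 3 of the 5 day 2 mice, and Dnajb1 and Dnajc14 are lower on day 2 than in controls.

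Partner genes of ER folding outside the family were read from a list of ER stress and ER quality control genes, of which 19 of 56 were tested. On day 1, 4 of them fell and 0 rose, where 8.38% of all features fell and 10.7% rose. On that day 18 of the 19 differences were below 0, and the median was -0.26 against -0.01 over all features. On day 2, 3 fell and 0 rose (median -0.14), where 9.61% of all features passed in each direction. On day 5, 1 rose and 0 fell (median 0.13), where 2.62% of all features passed. The mean over the list lay between -0.29 and -0.04 in day 1 mice, below all control mice at 0.02 to 0.12. In day 5 mice it ran from 0.11 to 0.28.

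The oxidase Ero1a, which recharges protein disulfide isomerases, fell by 0.44 ± 0.11 on day 1 (adjusted p = 0.0104) and by 0.53 ± 0.11 on day 2 (adjusted p = 0.0025), while Pdia3 rose on day 2. Sdf2l1, a BiP-associated protein induced by ER stress, fell by 0.56 ± 0.16 on day 1 (adjusted p = 0.0167) and rose by 0.79 ± 0.16 from day 2 to day 5 (adjusted p = 9.7e-04). The ubiquitin ligase Syvn1 (Hrd1) and Derl1, both of ER-associated degradation, fell by 0.58 ± 0.16 and 0.47 ± 0.14 on day 2 (adjusted p = 0.0163 and 0.0196).

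Ssr2, a subunit of the translocon-associated complex, fell by 0.32 ± 0.10 on day 1 (adjusted p = 0.0363) and rose by 0.48 ± 0.10 on day 5 (adjusted p = 0.0090). Mogs, the glucosidase that takes the first glucose from new glycans before calreticulin can bind them, fell by 0.45 ± 0.15 on day 1 (adjusted p = 0.0361). The stress factors Ddit3 (CHOP) and Atf4 did not pass, at 0.05 ± 0.10 and -0.43 ± 0.22 on day 1 (adjusted p = 0.771 and 0.174). Xbp1, Atf6, Atf6b and Eif2ak3 of the same list were not among the genes tested. On day 2 the 3 called genes of this list were lower than in control, while Calr and Pdia3 were higher.

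**Figure D4:**
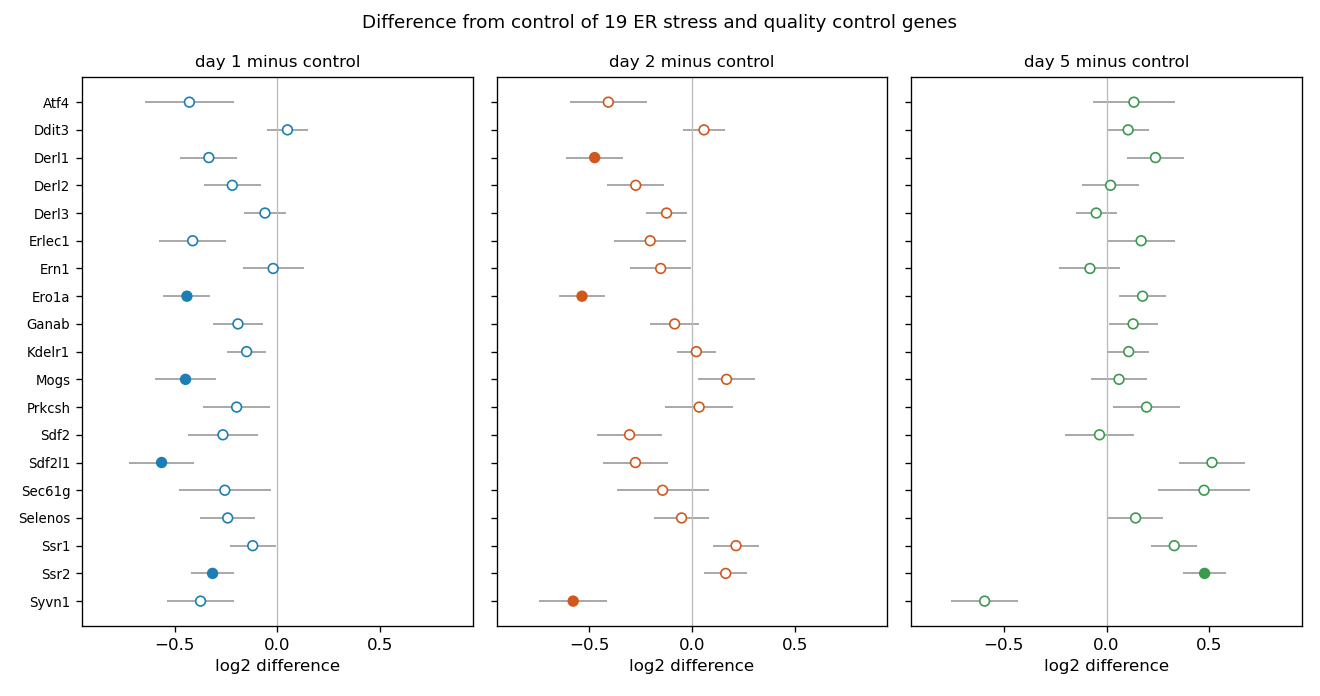
Difference from control (log2, limma estimate, bars 1 standard error) of the 19 tested ER stress and quality control genes on day 1, day 2 and day 5; filled points passed at an adjusted p under 0.05. The called genes are lower on day 1 (4) and day 2 (3), and on day 5 Ssr2 alone is called, as higher.

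Of a list of 44 cytosolic and mitochondrial co-chaperones, 10 were tested, and 2 rose on day 1 and day 2 with 0 falling, where 10.7% of all features rose on day 1 and 9.61% on day 2. These were Hsf2, a heat shock transcription factor, at 0.64 ± 0.13 and 0.38 ± 0.13 (adjusted p = 0.0018 and 0.0381), and Pfdn1, a subunit of the prefoldin that feeds TRiC, at 0.84 ± 0.18 and 0.70 ± 0.18 (adjusted p = 0.0034 and 0.0098). The list's median was 0.09 on day 1 and 0.16 on day 2. The heat shock element GAANNTTCNNGAA, on either strand, is in 0.514% of the RefSeq promoters and in 0 of the 23 tested members found there.

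RNA levels of cell type markers differed between the days on which chaperone genes differed. In whole marrow they do not tell cell numbers from RNA per cell. Macrophage markers (5 of 9 tested) had mean levels of -0.39 to 0.20 in control mice, 0.37 to 0.80 on day 1, 0.66 to 1.42 on day 2 and -0.62 to -0.16 on day 5, and 5 of 5 rose on day 2. Endothelial markers (4 of 5 tested) ran from -0.19 to -0.08 in control, 0.27 to 0.61 on day 1, 0.36 to 0.61 on day 2 and -0.29 to 0.01 on day 5. Granulocyte precursor markers (2 of 6 tested) ran from 0.23 to 0.82 in control, -0.95 to 0.18 on day 1, 0.18 to 0.68 on day 2 and 1.16 to 1.92 on day 5.

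Markers of late neutrophils (5 of 10 tested) fell to between -1.60 and -1.11 on day 2, from -0.09 to 0.25 in control. Genes of dividing cells (6 of 14 tested) were at -0.94 to -0.42 on day 1 against -0.05 to 0.25 in control. Plasma cell markers (5 of 8 tested) lay between -0.21 and -0.00345 in control, -0.28 and -0.06 on day 2 and -0.81 and 0.0047 on day 5. Within that list, 3 differences were below 0 on day 2 and 2 above. Mzb1 was at -1.33 ± 0.30 (adjusted p = 0.0040), while Sdc1 and Prdm1 were at 0.53 ± 0.20 and 0.39 ± 0.14 (adjusted p = 0.068 and 0.058).

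Stromal markers (2 of 6 tested) ran from -0.39 to -0.08 in control and from 0.25 to 1.25 on day 2. Megakaryocyte markers (3 of 5 tested) ran from -0.44 to 0.15 in control and from 0.32 to 1.40 on day 2. Erythroid markers (7 of 11 tested) were at -0.48 to -0.23 in control and -0.85 to -0.63 on day 2. On day 2 the means of the first 2 lists thus lay wholly above those of the control mice, and the erythroid means wholly below. Within the erythroid list, 5 of 7 differences on day 2 were below 0, with Ank1, Kel and Rhd called lower. Alas2 (0.58 ± 0.21) and Hba-a1 (0.33 ± 0.26) lay above control without passing (adjusted p = 0.060 and 0.417). On day 1 Alas2 rose by 1.36 ± 0.21 (adjusted p = 4.7e-04). B lineage markers (3 of 9 tested) ran from -0.09 to 0.28 in control, -1.22 to -0.52 on day 2 and -1.95 to -0.78 on day 5, and monocyte markers (3 of 6 tested) from -0.21 to 0.53 in control, -0.69 to -0.26 on day 1 and 0.61 to 0.77 on day 5. Within the monocyte list on day 5, F13a1 and Ms4a6c rose and Cybb did not (-0.10 ± 0.24, adjusted p = 0.969). These shifts move with the chaperone results, those of Calr, Pdia3, Fkbp1a, Dnaja2, Dnajc4 and Hspb2 on day 2 among them, and their part in them was not tested.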

How the data were processed

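Expression was measured on 2-colour arrays in marrow of 20 mice. The authors' deposited values are log ratios, taken here as log2, of mouse (Cy5) over a common reference (Cy3), as the dyes in the labels and the signed values show. The base of the logarithm, scanner, background correction, normalization and the rule for blank values stay unknown, since no label or header names them (not given in the sources used here). Array medians lay within 0.015 of 0, and 40.7% to 69.7% of values per array were blank. No value was filled in. Of 780 pairs of arrays, the lowest correlation was -0.175. The labels' design text says that the arrays hold replicates in pairs, so the technical replicates of a mouse may share a slide. They were averaged, so n counts mice.

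The platform annotation gave 10032 of 13443 probes 1 gene symbol, 170 several and 3241 none. Symbols were updated through a RefSeq table. Probes of a symbol were averaged. A feature was tested when 3 or more mice of every group had a value. A linear model with 1 mean per group over all 20 mice was fitted in limma 3.58.1 (R 4.3.3) with empirical Bayes moderation and Benjamini-Hochberg adjustment, and called at an adjusted p under 0.05. Values after ± are standard errors of that model unless marked SD. The number of mice limits the precision. Same-numbered mice of different groups were not paired, since the labels say that the mice were harvested independently. Over 30 pairs the correlation of their deviations ran from -0.39 to 0.33, with a median of -0.0023 and 8 above 0.1. For 8 of the 20 mice, the best match among the other groups had the same number. Whether mice of a number share a batch was not tested further.

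The members, role lists, other gene lists, tests and most alternatives were chosen with earlier results of these data known. Named are the members that passed, the top 3 of each role list by the F test and a set of well-known chaperones. Bag1, Dnajb4, Dnajb7, Dnajc24 and the members with few values that fall outside this rule were named after their values were seen. Alternatives were median centring, quantile normalization, filters at 2 or 5 mice, 1 technical replicate only, 1 probe per gene, values at a shared limit left out, array weights, a replicate block, fits of the compared groups alone, each mouse left out, and 2 sets of mice left out that were chosen after seeing the data. The steps were tested on simulated data. Promoters are RefSeq's, GRCm38.p6, 250 bases before the gene start.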

Additional observations from a re-analysis of the deposited data

Results flagged for a closer look

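Single values apart from the other mice of their group were looked for in 89 groups of 4 or 5 values of the tested members and found in 5, where chance gives about 1 in 20. They were Calr in day 1 mouse 2 (-0.69, the nearest other mouse at -0.25 with both probes averaged; on probe 019A10 alone the nearest was mouse 4 at -0.52, and mouse 2 has no value on the other probe), Dnajc15 in day 1 mouse 4 (-0.66, nearest 0.09), Dnajc4 in control mouse 4 (-0.67, nearest -0.09), Fkbp9 in day 5 mouse 4 (0.061, nearest -0.10) and Hspb1 in day 2 mouse 2 (-0.43, nearest -0.06).

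For 3 members the test of the difference between 2 of the days passed. Over all features, 1.36% were called higher on day 2 than on day 1, and 10.5% lower on day 5 than on day 2. Calr was 0.58 higher on day 2 than on day 1. From day 2 to day 5 Hspa9 differed by -0.47 and St13 by -0.36. The call was lost in 1 of 33 alternatives for Calr, 14 of 33 for Hspa9 and 17 of 32 for St13.

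Outside the tested genes, Pdia4 on day 1 and day 2 and Bag1 on day 5 had values wholly above the controls. Bag1 lay wholly below them on day 1. Other untested genes did so on fewer values: Cct7 was above the controls on day 2 (2 mice), and Hspa4l on each treated day (1 mouse each). No share of such genes among untested features was computed, so nothing is read from these separations. The lowest Pdia4 value was 0.64 on day 1 and 0.37 on day 2, against a highest control of 0.09. The lowest Bag1 value on day 5 was 0.26, against a highest control of 0.14.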

How the results depend on the processing

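Of 13 called differences of single members, 4 kept their call under every alternative that could be fitted: Calr, Fkbp1a and Dnaja2 on day 2 and Dnajc4 on day 1. None of the 35 differences with an unadjusted p under 0.05 changed its direction. The number of members called on day 1 was 3; it was 1 with either technical replicate alone and 5 with array weights. On day 2 it was 7, and 4 without the 2 mice least like their groups. On day 5 it was 0, with 1 by 1 probe per gene and 4 with array weights. Between day 2 and day 1 it was 1, with 2 under technical replicate 2 alone, array weights and both sets of mice left out, and 0 in a fit of those groups alone. Between day 5 and day 2 it was 2, with 1 under centring, either other filter or technical replicate 1 alone, and 0 under quantile normalization or a fit of those groups alone. The F test called 8, with 5 under quantile normalization, 4 with values required in 5 mice of every group and 13 with array weights. The 5-mouse filter tested 15 of the 26 members. Fkbp1a, P4hb, Dnaja2 and Hspb2 lacked values in some mice and dropped out untested, while Calr, Dnajc4, Pdia3 and Hspa9 kept their F call. St13 dropped out of the day 5 against day 2 count in the same way. The filter at 2 mice tested 33 members. Counts thus also move with the members tested. No share of all features is given for the alternatives, so their counts have no background.

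Leaving out 1 mouse at a time gave 1 to 4 members on day 1, 4 to 9 on day 2, 0 to 1 on day 5, 1 to 3 between day 2 and day 1, 0 to 2 between day 5 and day 2, and 4 to 9 in the F test. The mice whose loss moved a count by over 1.5 times were, for day 1, control 2 and day 1 mice 2, 3 and 4 (1 member each); for day 2, control 4 (4 members); for day 5, its mouse 5 (1 member); between day 2 and day 1, day 1 mouse 1 and day 5 mouse 4 (2) and day 2 mouse 5 (3). Between day 5 and day 2 they were control 2, day 1 mouse 5 and day 5 mice 1, 2 and 4 (0), and control 3, day 2 mice 1 to 3 and day 5 mouse 5 (1). In the F test they were day 1 mice 2 and 3 and day 5 mouse 4 (5), and day 5 mouse 2 (4). A fit without 1 mouse tested 20 to 26 members and also changed the shared spread. A count can thus move through genes with no value in that mouse. With the replicate block, the numbers called were 4 on day 1, 7 on day 2, 0 on day 5, 1 between day 2 and day 1, 1 between day 5 and day 2, and 6 in the F test. The block uses the replicate numbers, to which the labels give no further meaning. Blank values and the unknown treatment of the raw signal limit the rest: a gene with no value is not measured here, and its absence from the calls says nothing of its level.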
